A study of Mus musculus with 4 samples.

Results

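Plasma coagulation and complement factors are secreted mainly by hepatocytes, the parenchymal cells of the liver. The gene set described here held 39 of them: 20 genes of coagulation and fibrinolysis, 18 genes of complement, and Ahsg, which encodes fetuin-A, a hepatocyte glycoprotein that binds calcium phosphate. The members were fixed as a list of gene symbols and matched to probe sets that the platform annotation assigns to 1 gene. A single-gene probe set was found for 35 of the 39, out of 18193 genes on the array with one. Cpb2, C3, C4b and Cfd were not analysed here. All 35 measured members passed the filter on low signal, which kept 12187 genes for testing.

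Coagulation runs as a cascade of serine protease zymogens, several of which need vitamin K to bind membranes, and ends when thrombin cleaves fibrinogen to fibrin. Plasmin, made from plasminogen, dissolves the clot. Complement is set off by antibody, by lectins such as mannose-binding lectin, or by the alternative pathway. These routes converge on convertases that cleave C3 and C5, after which C6, C8 and C9 build the membrane attack complex. In liver, genes of both systems are controlled by hepatocyte transcription factors such as HNF1, HNF4 and C/EBP and by the cytokine IL-6 acting through STAT3.

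All mice were C57BL/6 and received 30 injections of carbon tetrachloride, a hepatotoxin that causes fibrosis, at 1 ml/kg. The treated animals received G-CSF (recombinant human granulocyte colony-stimulating factor), which expands neutrophils and releases them from the marrow, at 100 µg/kg over the last 7 days. The control animals received PBS, a saline buffer, to which 0.1% mouse serum albumin had been added, over the same days. Each group had 2 Affymetrix arrays, G-CSF 1 and 2 and PBS 1 and 2, made from 40 ng of total RNA, and the question was which transcripts differed with G-CSF. The labels describe the source as liver tissue and the cells as being of bone marrow origin, and the sources used here name no sort. They do not say that arrays came from separate mice, so the spread behind the p-values is that between arrays and may be technical. The sources used here give neither sex nor age.

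The values are MAS5 signals, scaled per array, and each array had the same trimmed mean of 500. A signal is therefore relative to the other RNA on its array. Hepatocyte transcripts were abundant on all 4 arrays. Alb, serum albumin, had signals of 52315 and 46302 with G-CSF, against 43301 and 46068 with PBS, close to the highest signals of any probe set, 58436 to 63693. The summed signal of 15 measured hepatocyte markers (of 18 listed) was 292655 and 282675 with G-CSF, against 201253 on PBS 1 and 344684 on PBS 2. The brightest markers weigh most in this sum. Marker by marker, PBS 2 exceeded PBS 1 by a median of 2.74-fold over the 14 tested. PBS 1 stood apart from the other arrays, with correlations to them of 0.813 to 0.844 over the genes tested, while the G-CSF arrays correlated at 0.974. The 10 measured T cell markers (of 12) summed to 999 and 870 with G-CSF, against 19385 on PBS 1 and 846 on PBS 2. The 12 measured neutrophil markers (of 14) summed to 260138 and 215080 with G-CSF, against 26425 on PBS 1 and 8463 on PBS 2. The lowest signals among the tested neutrophil and T cell markers were 23.5 and 13.4, below the median of all values, 92.9. The sums therefore do not show that each marker was detected on each array. The ratio of 3' to 5' Gapdh control signal, a measure of RNA integrity and labelling, was 20.2 and 19.1 with G-CSF, against 15.7 and 14.8 with PBS. The part of these values in the results below was not tested. In RNA from mixed tissue, fewer cells of a type and less RNA per cell cannot be told apart.

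The members moved together across the arrays, as described below. The promoters of 5 members are shown, taken from RefSeq on GRCm38.p6, and no link between promoter and signal was tested. They are the 3 fibrinogen chains, which lie next to each other on chromosome 3, and C8a and C8b, neighbours on chromosome 4, of which C8a departed from the common order. Each run holds the 250 bases before the annotated start, read 5′ to 3′, and capitals mark matches to the motifs named in the paragraph after the runs.
Fgg, chr3:83007474-83007723, plus strand: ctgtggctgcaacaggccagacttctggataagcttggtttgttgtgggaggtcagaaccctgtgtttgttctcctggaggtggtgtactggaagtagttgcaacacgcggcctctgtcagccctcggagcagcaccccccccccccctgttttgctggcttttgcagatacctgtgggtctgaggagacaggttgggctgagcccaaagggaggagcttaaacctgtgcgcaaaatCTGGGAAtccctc
Fga, chr3:83025903-83026152, plus strand: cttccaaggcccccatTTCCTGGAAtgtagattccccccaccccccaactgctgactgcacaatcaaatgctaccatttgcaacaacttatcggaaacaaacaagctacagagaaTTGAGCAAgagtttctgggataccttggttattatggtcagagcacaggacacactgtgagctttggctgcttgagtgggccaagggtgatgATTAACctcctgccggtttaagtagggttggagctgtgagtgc
Fgb, chr3:83049864-83050113, minus strand: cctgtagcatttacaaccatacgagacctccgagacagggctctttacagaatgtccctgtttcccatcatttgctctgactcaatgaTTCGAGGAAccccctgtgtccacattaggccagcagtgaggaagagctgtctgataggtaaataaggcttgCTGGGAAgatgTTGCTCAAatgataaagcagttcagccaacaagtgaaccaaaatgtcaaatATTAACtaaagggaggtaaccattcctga
C8a, chr4:104876399-104876648, minus strand: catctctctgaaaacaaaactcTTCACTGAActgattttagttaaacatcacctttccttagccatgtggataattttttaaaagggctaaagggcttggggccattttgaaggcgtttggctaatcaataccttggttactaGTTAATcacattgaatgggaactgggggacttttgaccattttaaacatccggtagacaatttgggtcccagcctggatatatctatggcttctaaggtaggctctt
C8b, chr4:104766067-104766316, plus strand: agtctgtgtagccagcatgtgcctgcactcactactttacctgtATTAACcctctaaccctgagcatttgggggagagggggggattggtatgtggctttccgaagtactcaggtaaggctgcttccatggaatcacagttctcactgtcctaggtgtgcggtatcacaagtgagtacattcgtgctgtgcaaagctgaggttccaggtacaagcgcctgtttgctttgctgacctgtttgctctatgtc

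Of the 35 measured members, 28 had a promoter in the RefSeq table. The core GTTAAT of the HNF1 element, searched on both strands, occurred in 10 of the 28 (35.7%), against 7.49% of the 27025 genes with a promoter there. These were F13b, Fga, Fgb, Proz and Vtn among coagulation genes and C4bp, C8a, C8b, Cfp and Hc among complement genes. The C/EBP motif TTGCNNAA was found in 8 of 28 members (28.6%) and in 10.8% of all genes. The members with it were F9, F11, Fga, Fgb, Hrg and Klkb1 in coagulation, C9 in complement, and Ahsg. The STAT3 element CTGGGAA occurred in 4 of 28 (14.3%; 10.4% of all genes), which were Fgb, Fgg, F9 and Masp2. The palindrome TTCNNNGAA occurred in 6 of 28 (21.4%, against 8.13% of all genes), which were F9, Fga, Fgb, Pros1, C8a and Masp2. In F9 and Masp2 it overlapped CTGGGAA. The HNF4 motif CAAAGTCCA was found in 0 of 28 members and 0.451% of all genes. Matches are letters in these windows and were not tested as binding sites.

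No member was called between the 2 groups. By limma, 0 of 19 coagulation genes and 0 of 15 complement genes passed the threshold of 0.05. Ahsg had an adjusted p of 0.988 by limma, and 0% of all 12187 genes passed. At an unadjusted p below 0.05 there were 0 members as well, against 3.52% of all genes. The smallest unadjusted p was 0.181, for C8a. The median log2 difference, G-CSF minus PBS on the scale of log2(signal + 23), was −0.02 over coagulation genes and 0.07 over complement genes, against 0.07 over all genes tested. Coagulation differences ran from −0.39 for F7 to 0.39 for Pros1, and complement differences from −0.96 for C8a to 0.62 for Masp1. The difference of the 2 medians, coagulation minus complement, was −0.09. The interval of single genes was wide: for Fgb, the fibrinogen beta chain, the difference was −0.02 with a 95% interval of −1.44 to 1.40 (n = 2 arrays per group; limma).

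The PBS arrays lay far apart. In 34 of 35 members the lowest signal was on PBS 1 and the highest on PBS 2, with both G-CSF arrays between them. This order held for all 19 coagulation genes, for Ahsg and for 14 of 15 complement genes, C8a being the exception. Over all genes tested it held for 21.8%. The 11 of 14 hepatocyte markers with the same order included Hnf4a, a hepatocyte transcription factor, with 5552 and 5461 with G-CSF, against 1897 on PBS 1 and 10134 on PBS 2. Of the 14 markers, 2 had both G-CSF arrays above both PBS arrays, Alb among them. PBS 2 exceeded PBS 1 by a median of 3.06-fold over coagulation genes, from 2.01-fold for Fgg to 4.77-fold for F9. Over complement genes the median was 3.89-fold, from 2.38-fold for Cfi to 11.8-fold for C6. As differences of log2(signal + 23), the medians were 1.60 and 1.93, against 0.16 over all genes. Over the 14 hepatocyte markers the median was 2.74-fold, or 1.45 as such a difference. Of the 35 members, 0 had both G-CSF arrays above both PBS arrays and 1, C8a, had both below. The shares over all genes were 18.6% and 12.1%. With 2 arrays against 2, an exact two-sided permutation test cannot go below p = 0.333.

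**Figure D1:**
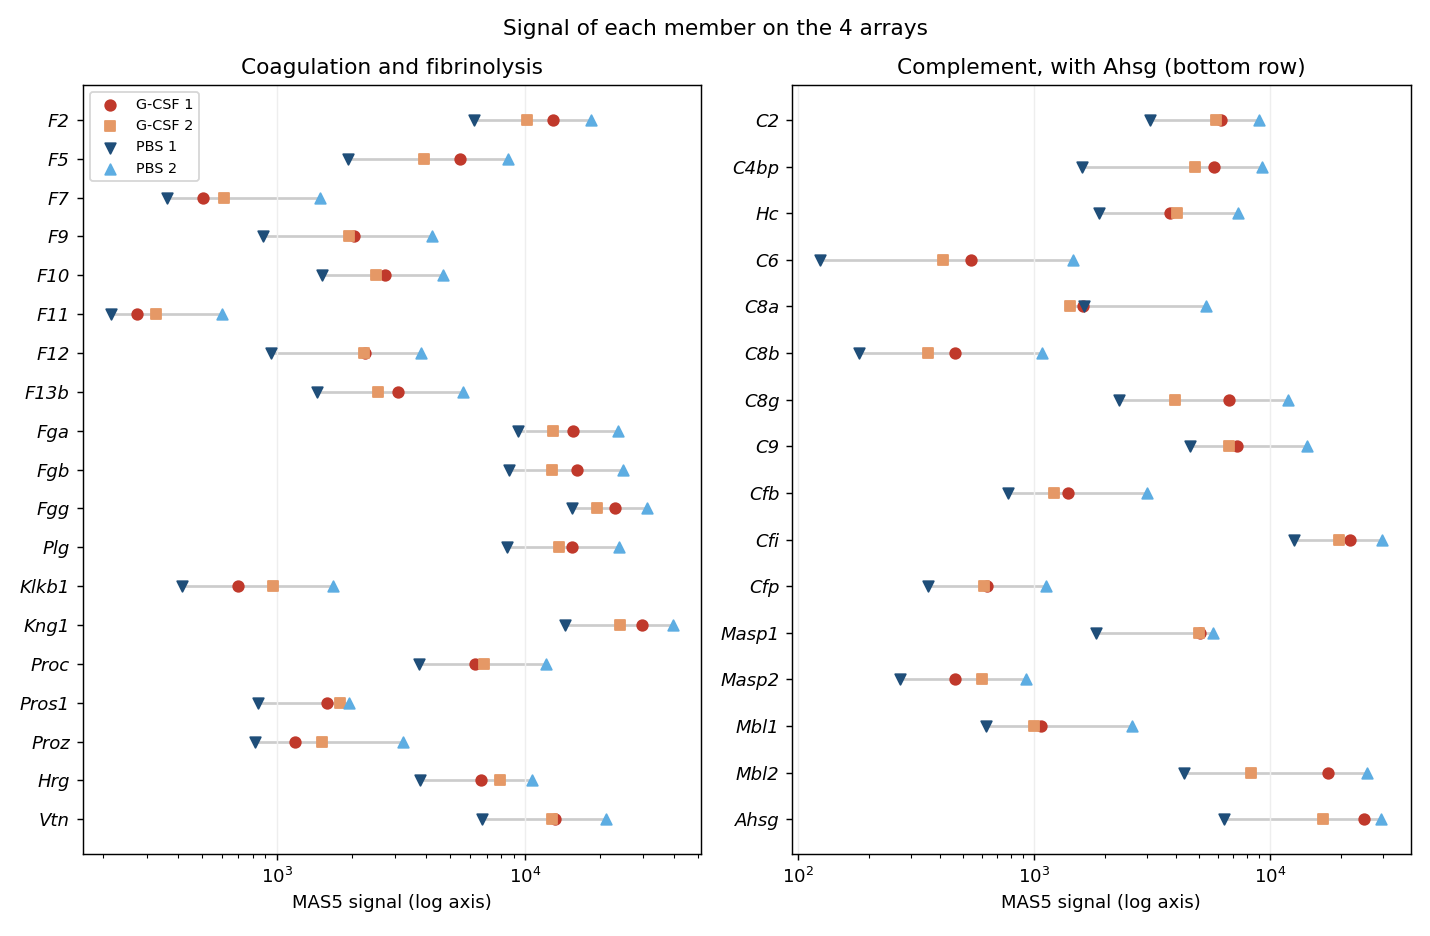
MAS5 signal (log axis) of each of the 35 measured members on the 4 arrays, coagulation genes at left and complement genes with Ahsg at right; points are single arrays and grey lines join the lowest to the highest. In 34 of 35 rows PBS 1 is leftmost and PBS 2 rightmost, with both G-CSF arrays between; in the C8a row the G-CSF arrays lie just left of PBS 1.

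Set against each PBS array alone, the same members gave opposite answers. Against PBS 1, both G-CSF arrays were higher in 34 of 35 members, against 52.1% of all genes. The median difference was 0.88 over coagulation genes and 0.96 over complement genes, and limma called 15 of 19 and 14 of 15 higher, while 22.6% of all genes were called higher. Ahsg was also called. Against PBS 2, both G-CSF arrays were lower in 35 of 35 members, against 37.5% of all genes. The medians were −0.78 and −1.04, and 5 of 19 coagulation genes and 7 of 15 complement genes were called lower, while 1.45% of all genes were called lower. In both fits the lone PBS array is assumed to vary like the G-CSF pair, so the spread between the PBS arrays is left out. A call in these fits therefore does not show a difference between the groups. The 2 comparisons share the G-CSF arrays.

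**Figure D2:**
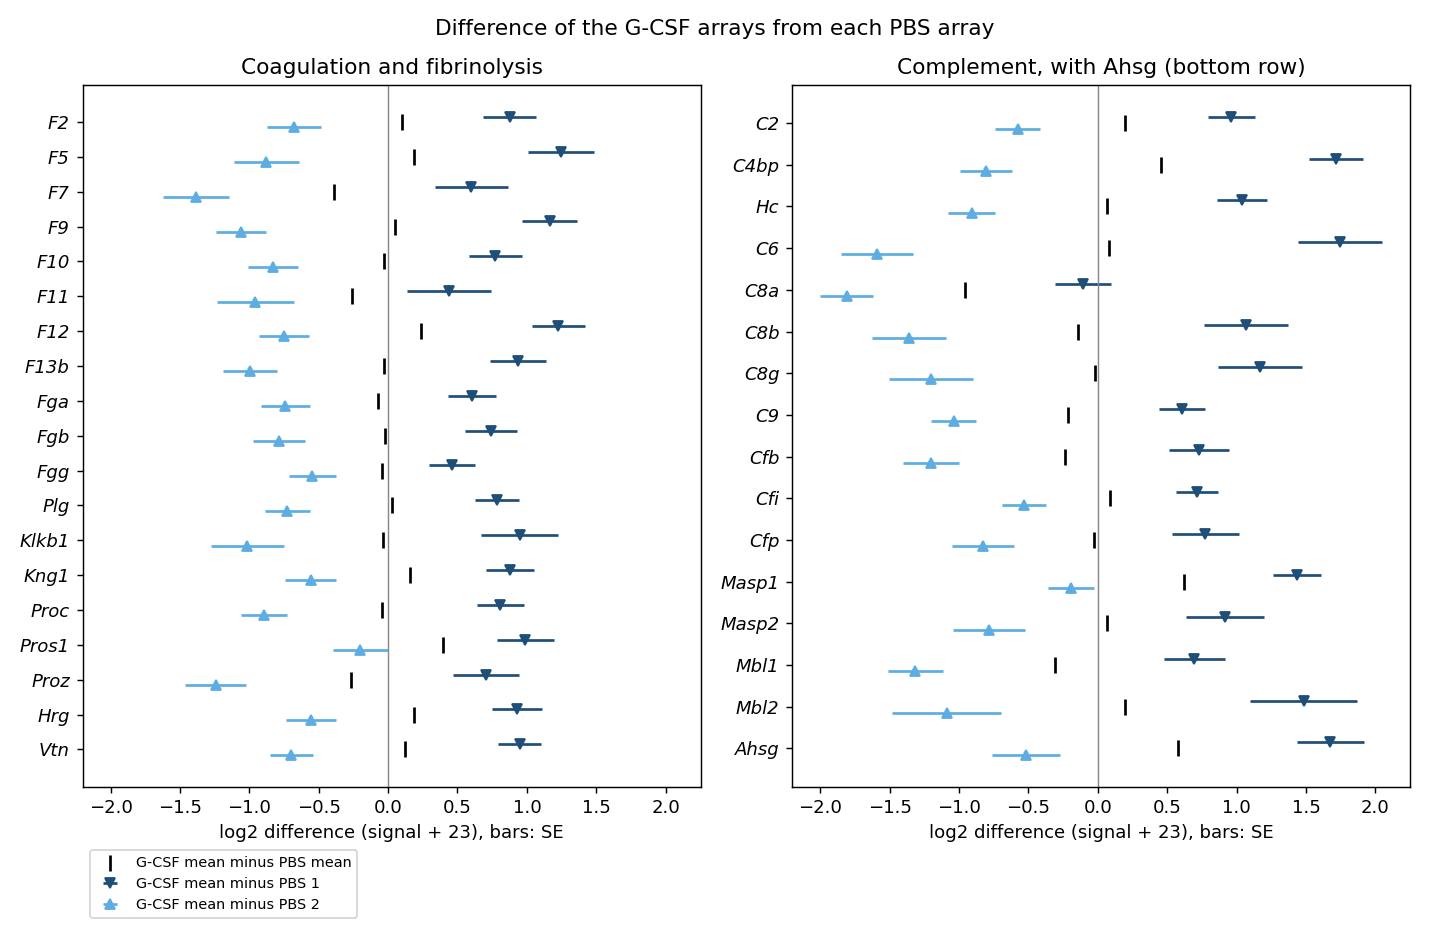
Log2 difference (signal + 23) of the mean of the 2 G-CSF arrays from PBS 1 (dark triangles), from PBS 2 (light triangles) and from the PBS mean (black ticks) for each member; bars are standard errors of the limma fits. Every light triangle lies below 0, and every dark triangle except that of C8a lies above 0.

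To show where G-CSF fell within the PBS range, the G-CSF mean was placed between PBS 1 (0%) and PBS 2 (100%) on the log2 scale. Its median place was 48.6% for coagulation genes, from 30.2% for F7 to 83.1% for Pros1. For complement genes the median was 52.4%, from −6.34% for C8a to 88.3% for Masp1. The place is a description, and no test was made of it.

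Among the vitamin K-dependent factors, F7, the zymogen that starts the extrinsic pathway with tissue factor, had signals of 506 and 613 with G-CSF, against 360 on PBS 1 and 1492 on PBS 2. Both G-CSF arrays lay near PBS 1 (difference −0.39 ± 0.70, SE). F9, factor IX of the intrinsic pathway, had 2054 and 1961 with G-CSF, against 883 on PBS 1 and 4214 on PBS 2. F9 was 2.24-fold above PBS 1 and 0.479 times PBS 2. It was named for the distance of PBS 1 from the other arrays, so its gap to PBS 1 follows from that choice. Proz, protein Z, a cofactor in the inhibition of factor Xa, had 1188 and 1518 with G-CSF, against 815 on PBS 1 and 3210 on PBS 2. It lay low in the PBS range, as F7 did.

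Pros1, protein S, the cofactor of activated protein C, differed in its place. It had 1599 and 1798 with G-CSF, against 842 on PBS 1 and 1952 on PBS 2, so both G-CSF arrays were close to PBS 2 (difference 0.39 ± 0.49). Against PBS 2 alone its difference was −0.20, and against PBS 1 alone 0.99. The other members of the group, F2 (prothrombin), F10 (factor X) and Proc (protein C), lay at 47.5% to 56.3% of the PBS range. F2, for example, had 12945 and 10150 with G-CSF, against 6234 on PBS 1 and 18377 on PBS 2.

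The 3 fibrinogen chains, whose promoters are printed above, had similar places. Fgb had 16158 and 12811 with G-CSF, against 8594 on PBS 1 and 24807 on PBS 2. Fgg, the gamma chain, had 23125 and 19448 with G-CSF, against 15425 on PBS 1 and 30955 on PBS 2. Fga, the alpha chain, had 15574 and 12980 with G-CSF, against 9352 on PBS 1 and 23792 on PBS 2. All 3 lay at 44.8% to 48.6% of the PBS range, and G-CSF 1 exceeded G-CSF 2 by 1.19-fold to 1.26-fold in each. Fgg had the narrowest PBS range of the 19 coagulation genes at 2.01-fold. Against PBS 1 alone the differences of Fga, Fgb and Fgg were 0.60, 0.74 and 0.46. Against PBS 2 alone they were −0.74, −0.78 and −0.55.

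In the contact system, which activates the intrinsic pathway and releases bradykinin, Kng1, kininogen 1, had 29706 and 24047 with G-CSF, against 14558 on PBS 1 and 39383 on PBS 2. F12, factor XII, had 2258 and 2236 with G-CSF, against 946 on PBS 1 and 3796 on PBS 2. Its G-CSF arrays were nearly equal and well inside a 4.01-fold PBS range. F11, factor XI, had 273 and 325 with G-CSF, against 214 on PBS 1 and 599 on PBS 2. Hrg, histidine-rich glycoprotein, a relative of kininogen that binds plasminogen, had 6630 and 7905 with G-CSF, against 3788 on PBS 1 and 10638 on PBS 2. Klkb1, plasma prekallikrein, which neighbours F11 on chromosome 8, lay at 48.3% of the PBS range, against 31.3% for F11.

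F5, the cofactor of factor Xa, had 5481 and 3901 with G-CSF, against 1938 on PBS 1 and 8513 on PBS 2. Its replicates within each group were far apart, 1.41-fold with G-CSF and 4.39-fold with PBS. F13b, the carrier subunit of the fibrin-stabilising factor XIII, had 3070 and 2564 with G-CSF, against 1456 on PBS 1 and 5611 on PBS 2. Plg, plasminogen, and Vtn, vitronectin, an adhesive protein that stabilises the plasminogen activator inhibitor, lay at 52.0% and 57.6% of the PBS range. All of these groups overlapped.

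C8a, the alpha chain of complement C8, was the one member with G-CSF below both PBS arrays. It had 1608 and 1421 with G-CSF, against 1630 on PBS 1 and 5351 on PBS 2, so the gap to PBS 1 was small. With quantile normalization the groups of C8a overlapped. Its difference was −0.96 ± 0.62 (limma adjusted p = 0.988), −0.11 against PBS 1 alone and −1.81 against PBS 2 alone. C8b, the neighbouring gene for the beta chain, had 463 and 355 with G-CSF, against 181 on PBS 1 and 1076 on PBS 2. C8g, the gamma chain, a lipocalin, had 6728 and 3952 with G-CSF, against 2284 on PBS 1 and 11903 on PBS 2. The 3 chains of C8 thus had different places in the PBS range, −6.34%, 44.1% and 49.2%, and the difference between them was not tested.

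Among the other terminal components, C6, which binds the C5 fragment C5b to start the membrane attack complex, had the widest PBS range of any member. It had 539 and 411 with G-CSF, against 124 on PBS 1 and 1461 on PBS 2. The value on PBS 1 was the lowest signal of any member, not far above the filter cut of 95.0, so the width of this range rests on a low value. C9, which polymerises to form the pore, had 7239 and 6737 with G-CSF, against 4573 on PBS 1 and 14374 on PBS 2. Its G-CSF arrays lay closer to PBS 1. Hc, which encodes complement C5, lay at 53.5% of the range, with 3766 and 4050 with G-CSF, against 1885 on PBS 1 and 7341 on PBS 2. Over the 6 terminal genes the median log2 difference was 1.06 against PBS 1 alone and −1.28 against PBS 2 alone. Over all genes tested these medians were 0.19 and 0.0007.

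In the lectin pathway, Masp1, a serine protease that associates with mannose-binding lectin, stood nearest to PBS 2. It had 5046 and 5000 with G-CSF, against 1839 on PBS 1 and 5738 on PBS 2 (difference 0.62 ± 0.59). The brightest of its probe sets not marked as sharing sequence with other transcripts had 754 and 522 with G-CSF, against 424 on PBS 1 and 1154 on PBS 2, a difference of −0.16. The other Masp1 probe sets above the filter, marked as sharing sequence like the brightest, were at 0.89 and 0.37. Direction and place of Masp1 thus depended on the probe set, and only the probe set at −0.16 was negative. Masp2, the protease that cleaves C4 and C2, had 464 and 604 with G-CSF, against 270 on PBS 1 and 929 on PBS 2.

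The 2 mannose-binding lectins differed in their spread. Mbl2 had 17554 and 8315 with G-CSF, against 4306 on PBS 1 and 25712 on PBS 2. Its G-CSF arrays were 2.11-fold apart, the widest gap between them of any member. Mbl1 had 1066 and 999 with G-CSF, against 628 on PBS 1 and 2598 on PBS 2. Mbl1 was 1.62-fold above PBS 1 and 0.402 times PBS 2, and Mbl2 was 2.80-fold above PBS 1 and 0.470 times PBS 2. Mbl2 was named in part for the distance of PBS 1 from the other arrays, so its gap to PBS 1 follows in part from that choice. Whether the 2 lectins differ from each other was not tested.

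Of the convertase components, Cfb, factor B of the alternative pathway, had 1391 and 1220 with G-CSF, against 778 on PBS 1 and 3027 on PBS 2. C2, its counterpart in the classical and lectin pathways and its neighbour on chromosome 17, had 6200 and 5881 with G-CSF, against 3088 on PBS 1 and 9011 on PBS 2. Cfb lay at 37.7% and C2 at 62.6% of the PBS range. Cfp, properdin, which stabilises the alternative convertase and is known from myeloid cells more than from hepatocytes, had 633 and 615 with G-CSF, against 355 on PBS 1 and 1123 on PBS 2. This probe set had the order of the other members. A further probe set of Cfp lacked it, with 488 and 249 with G-CSF, against 296 on PBS 1 and 291 on PBS 2.

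The 2 inhibitors were C4bp, the binding protein of C4b, and Cfi, factor I, the protease that inactivates C3b and C4b. C4bp had 5782 and 4826 with G-CSF, against 1593 on PBS 1 and 9248 on PBS 2. It was 3.28-fold above PBS 1 and 0.572 times PBS 2. C4bp was named in part for the distance of PBS 1 from the other arrays, so its gap to PBS 1 follows in part from that choice. Cfi had 21754 and 19703 with G-CSF, against 12590 on PBS 1 and 29962 on PBS 2. Ahsg had 25076 and 16810 with G-CSF, against 6407 on PBS 1 and 29419 on PBS 2, so G-CSF lay at 76.4% of its range (difference 0.58 ± 0.75).

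Coagulation and complement were compared within the same arrays. Against PBS 1 the complement median exceeded the coagulation median by 0.09, and against PBS 2 it was lower by 0.25. The spread of the coagulation minus complement difference between replicate arrays was 0.32 (SD pooled over both pairs), larger than either value. G-CSF 1 exceeded G-CSF 2 in 12 of 19 coagulation genes and in 13 of 15 complement genes. Its median excess was 0.07 and 0.14 on the log2 scale, against −0.02 over all genes.

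Other genes of the same pathways, some made in liver and some in other cells, were mixed. Of 20 other coagulation and fibrinolysis genes tested, limma called 0, and 3 had an unadjusted p below 0.05. Both G-CSF arrays were above both PBS arrays in 8 of the 20, against 18.6% of all genes, and 8 had the order of the members, against 21.8% of all genes. Their median difference was 0.42. F13a1, the catalytic subunit of factor XIII that F13b carries, known from monocytes and platelets, had 1457 and 1936 with G-CSF, against 48.9 on PBS 1 and 216 on PBS 2 (difference 3.70 ± 0.64, limma adjusted p = 0.334). The groups of F13a1 did not overlap, whereas those of F13b did, and the difference between the 2 subunits was not tested. Plaur, the urokinase receptor of leukocytes, had 821 and 413 with G-CSF, against 237 on PBS 1 and 193 on PBS 2. Anxa2, annexin A2, a surface receptor for plasminogen, had 12870 and 11594 with G-CSF, against 4585 on PBS 1 and 5939 on PBS 2. Vwf, von Willebrand factor of endothelium and platelets, and A2m, alpha-2-macroglobulin, also did not overlap, at 1.32 ± 0.56 and 1.12 ± 0.44. F2r, a thrombin receptor, did overlap, at 0.20 ± 0.30. Serpinc1, the hepatocyte gene for antithrombin, had the order of the members, with 14971 and 14289 with G-CSF, against 6262 on PBS 1 and 22472 on PBS 2.

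Of 22 other complement genes tested, limma called 0, and 4 had an unadjusted p below 0.05. The order of the members held in 14 of the 22, against 21.8% of all genes, and 6 had both G-CSF arrays above both PBS arrays, against 18.6% of all genes. Their median difference was 0.34. The 14 included liver genes such as Serping1, the C1 inhibitor, and also C1qa, C1qb and C1qc, the chains of C1q, which are known from macrophages. C1qa had 3410 and 3752 with G-CSF, against 2243 on PBS 1 and 5673 on PBS 2. Fcnb, ficolin B, a lectin of myeloid cells that can start the lectin pathway, had 794 and 980 with G-CSF, against 92.7 on PBS 1 and 116 on PBS 2 (difference 2.83 ± 0.34, limma adjusted p = 0.148). C5ar1, the receptor for the C5 fragment C5a on neutrophils, had 384 and 285 with G-CSF, against 58.1 on PBS 1 and 126 on PBS 2. Itgb2, the common chain of the leukocyte complement receptors, had 6559 and 6121 with G-CSF, against 2195 on PBS 1 and 2808 on PBS 2. Cr2, a complement receptor of B cells, and Cd55, which speeds the decay of convertases, did not overlap either, at 1.42 ± 0.52 and 0.66 ± 0.46. Colec11, a lectin made in liver, lay inside the PBS range in the order of the members, and Clu, clusterin, at 0.40 ± 0.36, had 1 G-CSF array above both PBS arrays. The neutrophil markers, summed above, were higher on the same arrays as F13a1, Fcnb, C5ar1, Itgb2 and Plaur, and their part in these values was not tested. These genes were named for the smallest p in their lists, so that they differ between the groups follows in part from that choice.

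**Figure D3:**
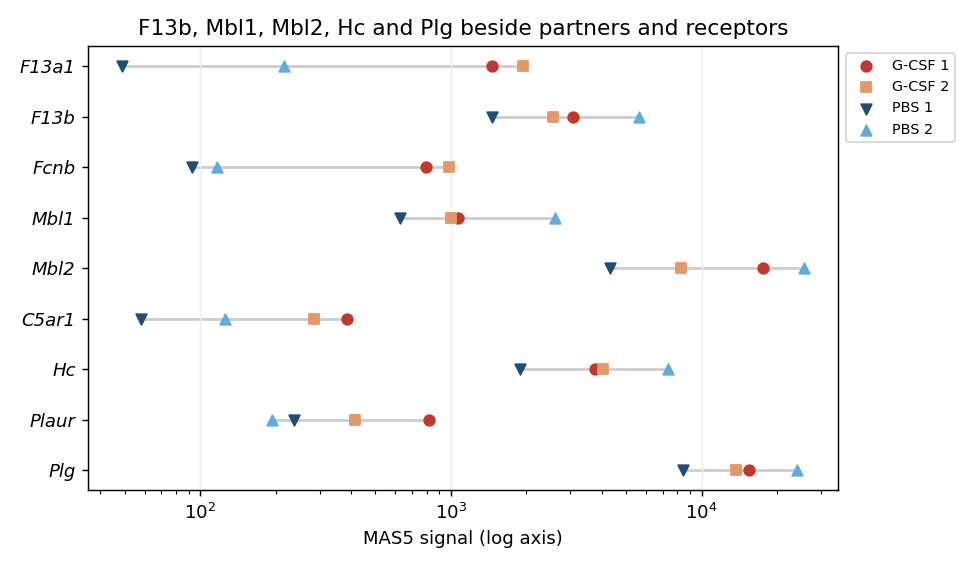
MAS5 signal (log axis) on the 4 arrays for 5 members (F13b, Mbl1, Mbl2, Hc and Plg) and for F13a1, Fcnb, C5ar1 and Plaur; points are single arrays and grey lines join lowest to highest. Both G-CSF arrays lie right of both PBS arrays for F13a1, Fcnb, C5ar1 and Plaur, and between the PBS arrays for the 5 members.

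Other secreted hepatocyte products gave the nearest comparison. Of 21 acute-phase genes tested, 18 had the order seen in the members, and of 18 apolipoprotein and related genes 15 did. Their median differences were 0.16 and 0.26, with 0 genes called in either list. Against PBS 1 alone the medians were 1.23 and 1.01, and against PBS 2 alone −0.73 and −0.54. No test was made of the members against these lists. Saa3 and Lcn2, acute-phase genes also made by myeloid cells, did not overlap, at 3.43 ± 0.95 and 2.59 ± 0.65. Saa1, a serum amyloid A of hepatocytes, had the order of the members, with 2201 and 4095 with G-CSF, against 1632 on PBS 1 and 13082 on PBS 2. Hamp, the iron hormone hepcidin, was higher on both G-CSF arrays, with 17730 and 12752, against 2369 on PBS 1 and 11346 on PBS 2. Hp, haptoglobin, and Hpx, hemopexin, lay inside the PBS range. Apoc2 and Apoa4 did not overlap, at 1.04 ± 0.55 and 0.64 ± 0.38, while Apoa1 and Apoe, at 0.26 ± 0.51 and 0.13 ± 0.36, had the order of the members. Apoa5 and Apobec1 had it as well, and Apob had 1 G-CSF array above both PBS arrays, at 0.67 ± 0.53.

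**Figure D4:**
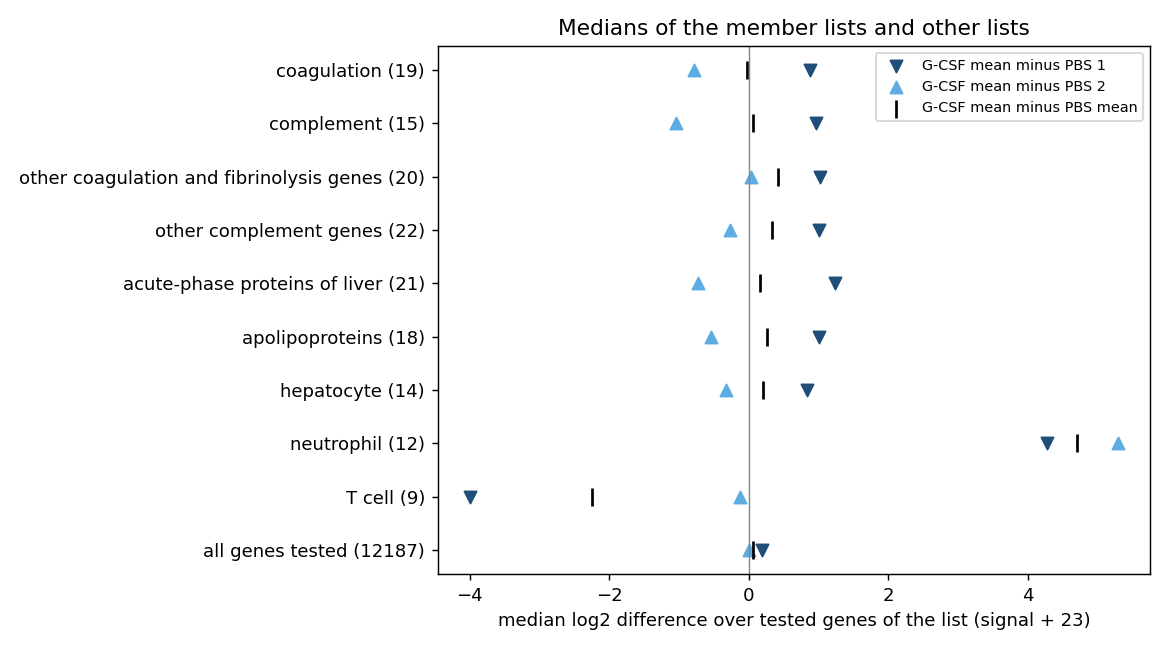
Median log2 difference (signal + 23) over the tested genes of each list, with the number of genes in parentheses, against PBS 1, PBS 2 and the PBS mean. The coagulation and complement medians are −0.02 and 0.07 against the PBS mean and lie on opposite sides of 0 against the single PBS arrays, as do those of the acute-phase, apolipoprotein and hepatocyte lists; the neutrophil medians are above 0 against each.

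Further probe sets gave a check on the order within the members. In 9 of the members there were 14 further probe sets, of which 11 had PBS 1 lowest and PBS 2 highest with G-CSF between. Kng1 by its other probe set had 4987 and 4847 with G-CSF, against 1995 on PBS 1 and 8362 on PBS 2. Vtn by its other probe set had 1965 and 1905 with G-CSF, against 869 on PBS 1 and 5000 on PBS 2. The 3 that did not have the order belonged to Cfp, Masp1 and Masp2, and that of Masp1 lay below the filter on low signal.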

How the data were processed

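Total RNA was profiled on 4 Affymetrix arrays of 45101 probe sets, 2 per group. Each probe set has 1 deposited intensity, a linear MAS5 signal that the authors computed and scaled per array. The submitters' processing notes name MAS5, and the sources used here do not give its version. Arrays were left as scaled, 0 columns lacked a sample, and the number of arrays limits the precision. Before log2, 23 was added to each signal as a pseudocount (the median of all values was 92.9). The tests left out 64 control probe sets, 932 listing several genes and 9160 listing none. The platform annotation, updated by Entrez ID to the GRCm38.p6 RefSeq table (unmatched for 204 of 34945 probe sets), named the genes. For each gene the brightest single-gene probe set on average was used, if above 95.0, the median over probe sets. The test was limma 3.58.1, run in R 4.3.3 (lmFit, eBayes with a trend, two-sided, Benjamini-Hochberg over all 12187 genes at 0.05), with 2 residual degrees of freedom, and the procedure was tested on simulated data. Members of each class were named by smallest p, highest signal and distance of PBS 1 from the other arrays, and genes of other lists by smallest p and highest signal. Genes outside that rule (the remaining members, Hnf4a, Alb, Serping1 and the C1q genes) were chosen after their values were seen. The members and lists were chosen with earlier results of these data known. Figures were drawn with Python 3.11.15 and matplotlib 3.10.9. Alternatives were other scalings, pseudocounts, filters, fits and probe sets, a block on replicate number, leaving out single arrays, Vtn counted with complement, and complement without Cfd and Cfp. Centring on the hepatocyte list was added after seeing the data.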

Additional observations from a re-analysis of the deposited data

How the results depend on the processing

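The number of arrays limits the precision, and no member was called with all 4 arrays under any alternative run. Scaling, pseudocount, filter, fit and probe-set choices moved 5 of 122 summary results by more than the replicate spread (medians) or 1.5 times (counts), and turned the sign of 10 of 249 named-gene results. The replicate spread includes the gap between the PBS arrays, with an SD of 1.09 for the coagulation median and 0.90 for the complement median. Few medians could move by more, so the low count does not show that they are stable. Medians lay near 0 and some turned sign within that spread. Coagulation was 0.0041 with the 75th percentile filter, 0.0061 with the mean of probe sets and 0.019 with quantile normalization. Complement was −0.024 with the median as pseudocount and −0.12 with hepatocyte centring, under which acute-phase genes were at −0.025. With the replicate block, 0 members and 92 genes were called. The correlation of deviations from the group mean between same-numbered arrays was −0.04. With 2 arrays per group, that value cannot show whether same-numbered arrays were paired. With specific probe sets alone 11 genes were called. Quantile normalization gave 0 complement genes with no overlap, and centring on the hepatocyte list, chosen after seeing the data, gave 7, with 5 coagulation genes. These counts pool both directions. The share of all genes under that centring is not given here, so the counts are not read as a result about the members. The sign turned under that centring for C6 (−0.11), Cfi (−0.094), F5 (−0.0022), F9 (−0.14) and Kng1 (−0.028). It also turned for C6 with the median as pseudocount (−0.041), F9 with median centring (−0.0030), Fgb and Fgg with quantile normalization (0.019 and 0.0094) and Masp1 with specific probe sets (−0.16). The cause was not tested. From without PBS 1 to without PBS 2, the median difference ran from −0.78 to 0.88 for coagulation, −1.04 to 0.96 for complement, −0.73 to 1.23 for acute-phase genes and −0.54 to 1.01 for apolipoproteins. Coagulation minus complement, −0.089 with all arrays, was −0.087 without PBS 2, 0.25 without PBS 1, 0.048 without G-CSF 1, 0.047 without G-CSF 2 and 0.0015 with the median as pseudocount. Leaving out G-CSF 2 also turned the coagulation median (0.084), and leaving out G-CSF 1 the complement median (−0.11). Without 1 PBS array, no overlap means only that both G-CSF arrays lie on one side of the other PBS array. Over all genes tested, both lay above PBS 1 in 52.1% and both below PBS 2 in 37.5%. Such counts of no overlap restate the places described above and are not read as a further result. Leaving out single arrays, 0 to 15 coagulation and 0 to 14 complement genes were called, and 0 to 19 and 1 to 15 had no overlap. Over all genes, 6 to 4689 were called, the lowest without G-CSF 1 and the highest without PBS 2. Log2 differences from without PBS 1 to without PBS 2 were F5 −0.88 to 1.25, F7 −1.38 to 0.60, F9 −1.06 to 1.16, F11 −0.96 to 0.44, F12 −0.75 to 1.23, Fgb −0.78 to 0.74, Fgg −0.55 to 0.46, Hrg −0.55 to 0.93, Kng1 −0.56 to 0.88, Pros1 −0.20 to 0.99, Proz −1.24 to 0.70, C4bp −0.81 to 1.72, C6 −1.59 to 1.75, C9 −1.04 to 0.61, Cfb −1.20 to 0.73, Cfi −0.53 to 0.72, Masp1 −0.19 to 1.44, Mbl1 −1.31 to 0.70, Mbl2 −1.09 to 1.48, Ahsg −0.52 to 1.68.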

Other observations

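A further probe set of Masp2, like that of Cfp, passed the filter on low signal without the order of the other members. It had 455 and 517 with G-CSF, against 317 on PBS 1 and 434 on PBS 2, so its groups did not overlap. The probe set of Masp2 reported above has the higher mean signal.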
